A study of Mus musculus with 6 samples.

Results

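Tex10 binding and trimethylation of lysine 4 of histone H3 (H3K4me3) were examined at the genes for the enzymes of oxidative phosphorylation in mouse cells of the primordial germ cell-like type (PGCLCs), a culture model of the germline founders of the embryo. The members were the protein-coding genes of chromosomes 1 to 19 whose symbols start with Nduf, Uqcr, Cox4 to Cox8 or Atp5, or are Sdha, Sdhb, Sdhc or Sdhd. There were 91 such genes of 20722, with 214 transcription start sites (TSS) of coding transcripts in GENCODE M21 (GRCm38). Each was assigned to a complex by symbol prefix alone, Nduf to I, Sdh to II, Uqcr to III, Cox to IV and Atp5 to V. Ndufa4, which encodes a subunit of complex IV, and its relative Ndufa4l2 were therefore counted under complex I. By symbol, 9 of them were counted as non-subunits, the 8 Ndufaf assembly factors of complex I and Atp5s, and the other 82 as subunit genes. Atp5o was listed under 2 gene identifiers, both among the 82, so the members had 90 symbols.

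All 6 samples were untreated PGCLCs at day 2 of culture from strain 129Sv/J. There were 2 chromatin immunoprecipitations with an antibody against the HA tag on the C-terminus of Tex10, 2 with an antibody against H3K4me3, and 2 input samples. The labels do not say whether the tagged line is a single clone, whether the H3K4me3 samples carried the tag, or whether samples of 1 group came from separate cultures. The deposited data hold 1 list of intervals per antibody, with 4331 HA-Tex10 and 29072 H3K4me3 intervals and no score, so no test between samples was possible and the depth is unknown. H3K4me3 was within 1 kb of a TSS at 5 of 7 germ cell markers (absent at Nanos3 and Dppa3), 5 of 5 pluripotency markers, 4 of 4 mesoderm markers, 4 of 4 endoderm markers, 1 of 4 fibroblast markers (Thy1) and 0 of 6 markers of unrelated tissues. It was there at 62.6% of all protein-coding genes, so these small counts do not identify the cells.

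Oxidative phosphorylation takes place in the inner mitochondrial membrane. Complex I takes electrons from NADH and complex II takes them from succinate, and both pass them through ubiquinone to complex III, cytochrome c and complex IV, which reduces oxygen. Complexes I, III and IV pump protons, and complex V, the ATP synthase, uses their return flow to make ATP. Most subunits are encoded in the nucleus and the others in the mitochondrial genome. H3K4me3 is a mark of the promoters of active or poised genes, and Tex10 is a nuclear protein known from ribosome biogenesis and from the pluripotency network.

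The promoters on which the HA-Tex10 intervals closest to a TSS lay are shown first, at most 2 for each complex, since they show which part of the promoter each interval covered. Each is the RefSeq promoter on GRCm38.p6, with 250 bases before and 50 bases after the start, read 5′ to 3′ on the strand of the gene. The RefSeq start can differ from the GENCODE TSS from which the distances below were measured. At Sdha, for example, the covered bases ended at -54 bp from the RefSeq start and 14 bp from a GENCODE TSS. Capitals mark the bases inside an HA-Tex10 interval. The windows were chr19:4012706-4013005 for Ndufv1, chr17:31519865-31520164 for Ndufv3, chr13:74350191-74350490 for Sdha, chr9:108936398-108936697 for Uqcrc1, chr7:4753045-4753344 for Cox6b2, chr5:115348909-115349208 for Cox6a1 and chr11:96075582-96075881 for Atp5g1.
Ndufv1: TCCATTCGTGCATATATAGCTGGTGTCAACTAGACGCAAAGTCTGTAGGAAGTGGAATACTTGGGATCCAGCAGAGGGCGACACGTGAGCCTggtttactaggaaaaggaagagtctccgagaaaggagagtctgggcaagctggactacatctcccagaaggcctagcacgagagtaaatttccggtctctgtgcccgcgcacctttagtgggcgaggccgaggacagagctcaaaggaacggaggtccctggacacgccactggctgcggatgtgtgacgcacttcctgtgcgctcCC
Ndufv3: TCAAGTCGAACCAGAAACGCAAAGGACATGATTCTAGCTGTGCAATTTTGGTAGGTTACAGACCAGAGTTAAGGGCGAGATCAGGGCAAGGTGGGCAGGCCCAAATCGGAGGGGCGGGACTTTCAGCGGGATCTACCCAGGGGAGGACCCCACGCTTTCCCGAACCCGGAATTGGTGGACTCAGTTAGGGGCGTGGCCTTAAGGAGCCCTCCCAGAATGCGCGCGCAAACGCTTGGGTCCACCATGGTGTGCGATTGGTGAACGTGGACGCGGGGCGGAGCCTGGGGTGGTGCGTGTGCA
Sdha: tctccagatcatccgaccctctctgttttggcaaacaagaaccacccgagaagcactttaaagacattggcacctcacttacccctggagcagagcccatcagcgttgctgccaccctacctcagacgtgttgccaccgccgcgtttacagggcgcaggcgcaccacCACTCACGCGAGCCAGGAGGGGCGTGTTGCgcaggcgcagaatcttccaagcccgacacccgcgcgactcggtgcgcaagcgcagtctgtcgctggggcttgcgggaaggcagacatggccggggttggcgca
Uqcrc1: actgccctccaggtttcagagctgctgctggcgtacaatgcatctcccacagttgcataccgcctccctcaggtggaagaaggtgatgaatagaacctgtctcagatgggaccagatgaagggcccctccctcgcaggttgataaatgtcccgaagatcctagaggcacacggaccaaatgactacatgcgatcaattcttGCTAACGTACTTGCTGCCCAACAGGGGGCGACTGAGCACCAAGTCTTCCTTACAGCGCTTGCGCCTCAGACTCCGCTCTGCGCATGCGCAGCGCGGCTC
Cox6b2: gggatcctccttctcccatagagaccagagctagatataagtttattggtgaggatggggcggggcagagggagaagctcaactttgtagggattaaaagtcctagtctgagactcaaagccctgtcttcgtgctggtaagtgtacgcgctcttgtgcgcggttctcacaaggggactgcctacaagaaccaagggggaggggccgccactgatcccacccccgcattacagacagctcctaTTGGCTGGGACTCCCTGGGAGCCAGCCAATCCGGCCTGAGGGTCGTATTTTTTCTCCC
Cox6a1: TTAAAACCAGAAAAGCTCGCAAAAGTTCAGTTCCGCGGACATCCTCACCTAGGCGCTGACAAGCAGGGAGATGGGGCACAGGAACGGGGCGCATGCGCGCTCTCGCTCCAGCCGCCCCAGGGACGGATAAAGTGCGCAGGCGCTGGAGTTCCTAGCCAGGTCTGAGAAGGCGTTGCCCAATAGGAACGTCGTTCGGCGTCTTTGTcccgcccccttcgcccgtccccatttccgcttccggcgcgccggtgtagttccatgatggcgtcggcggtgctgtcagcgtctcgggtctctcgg
Atp5g1: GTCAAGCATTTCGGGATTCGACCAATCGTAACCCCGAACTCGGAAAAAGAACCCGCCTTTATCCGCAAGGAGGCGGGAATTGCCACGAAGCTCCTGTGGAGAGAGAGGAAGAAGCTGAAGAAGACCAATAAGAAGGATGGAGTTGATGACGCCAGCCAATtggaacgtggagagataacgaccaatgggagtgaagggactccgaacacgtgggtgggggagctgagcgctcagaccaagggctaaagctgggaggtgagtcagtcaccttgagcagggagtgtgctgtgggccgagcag
The Ndufv3 window lay wholly inside its interval, with 300 of 300 bases covered. At Cox6a1 and Atp5g1 the covered bases were the first 205 and 160 of the window, and at Uqcrc1 and Cox6b2 they were the last 99 and 58 around and after the start. Sdha had 30 covered bases in 1 short block upstream of the start. Ndufv1 had 94 covered bases at the opposite ends of its window, which belong to 2 intervals. The intervals thus fell on different sides of the start at different members.

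H3K4me3 lay within 1 kb of a TSS at 85 of 91 members (93.4%, Wilson 95% interval 86.4% to 96.9%), against 62.6% of all protein-coding genes. HA-Tex10 lay there at 16 of 91 members (17.6%, 11.1% to 26.7%), against 9.13% of all protein-coding genes. All 16 members with HA-Tex10 also had H3K4me3, and none of the 6 members without H3K4me3 had HA-Tex10, a count of 0 that allows a share of up to 50%. The same held for nearly all protein-coding genes with HA-Tex10, of which 1854 of 1891 had H3K4me3 and 37 did not. Among members with H3K4me3, 16 of 85 (18.8%, 11.9% to 28.4%) had HA-Tex10, against 14.3% of all genes with the mark, so the members' share was near the background once the mark was taken into account. Mitochondrial ribosomal protein genes, another nuclear-encoded mitochondrial group, had HA-Tex10 at 9 of 78 (11.5%), and proteasome genes had it at 9 of 49 (18.4%). The intervals cover counting error only and treat genes as independent, which neighbours are not. A mark in fewer cells and a weaker mark in all cells cannot be told apart in these lists.

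Chromosome 8 carried HA-Tex10 at 41.2% of all its genes with H3K4me3, and its 3 members, Cox4i1, Ndufa13 and Ndufb7, all had HA-Tex10. Outside chromosome 8, 13 of 88 members (14.8%) had HA-Tex10, against 8.03% of all genes there. Of those with H3K4me3, 13 of 82 (15.9%) had HA-Tex10, against 12.7%.

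**Figure D1:**
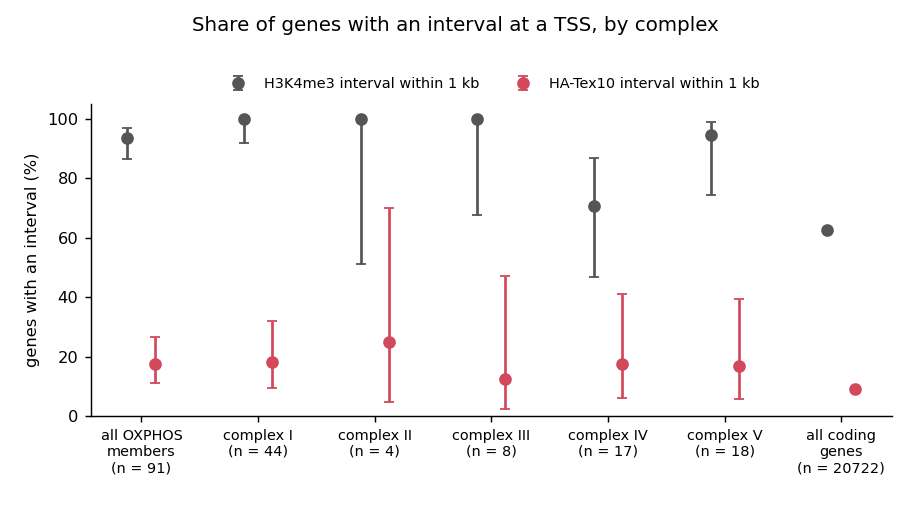
Share of genes (%) with an H3K4me3 interval (grey) or an HA-Tex10 interval (red) within 1 kb of a coding TSS, for all members, for each complex and for all protein-coding genes. Bars are Wilson 95% intervals, which cover counting error only. H3K4me3 is at 100% in complexes I, II and III and at 70.6% in complex IV, and the HA-Tex10 shares of the 5 complexes lie between 12.5% and 25% with wide, overlapping intervals.

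By complex, HA-Tex10 was at 8 of 44 genes of complex I, 1 of 4 of complex II, 1 of 8 of complex III, 3 of 17 of complex IV and 3 of 18 of complex V. The HA-Tex10 bars of the complexes in the plot of shares overlap, and no difference in HA-Tex10 between complexes was detectable with these numbers. H3K4me3 was at all 44, 4 and 8 genes of complexes I, II and III, at 12 of 17 of complex IV and at 17 of 18 of complex V. The H3K4me3 bars of complex I (92.0% to 100%) and complex IV (46.9% to 86.7%) do not overlap, and the 5 unmarked genes of complex IV are tissue-restricted isoforms.

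In complex I, HA-Tex10 lay at 6 of 36 subunit genes and 2 of 8 assembly factors. The counts of the gene families below are too small to set against the 14.3% of all marked genes. Of the Ndufv genes, which encode the flavoprotein part that oxidises NADH, 2 of 3 had HA-Tex10 (20.8% to 93.9%). Ndufv1, the subunit that carries the flavin, had an 81 bp interval over a TSS (chr19:4012627-4012707) and a 199 bp interval 108 bp upstream (chr19:4012914-4013112), of which 38.7% lay in H3K4me3. Ndufv3, an accessory subunit of the same part, had the widest interval of the members with 527 bp (chr17:31519863-31520389), which also covered a TSS of Wdr4, a gene for a subunit of a tRNA methyltransferase. Ndufv2 had H3K4me3 without HA-Tex10. One of 8 Ndufs genes had HA-Tex10, Ndufs7, which encodes an iron-sulfur subunit close to the ubiquinone site, with 148 bp ending 33 bp from a TSS (chr10:80249272-80249419). Among 14 Ndufa genes it lay at 1, Ndufa13, an accessory subunit, among 9 Ndufb genes at 2, Ndufb6 and Ndufb7, and among 2 Ndufc genes at none.

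Ndufb6 and Ndufb7, accessory subunits of the membrane arm, had intervals over their own TSS, of 219 bp (chr4:40279399-40279617) and 339 bp (chr8:83566598-83566936). Ndufa13 had 2 intervals that flanked its start, of 352 bp (chr8:69901458-69901809) and 464 bp (chr8:69903198-69903661). They ended 749 and 640 bp from its TSS, and Tssk6 or Yjefn3 was closer to them, at 375 and 486 bp. Ndufa13 was therefore the member closest to the edge of the 1 kb window. Beyond that edge, Atp5g2, which encodes a subunit of the ATP synthase ring, had a 257 bp interval 2170 bp from its TSS (chr15:102665317-102665573). Both assembly factors with HA-Tex10 act on the same step, since Ndufaf5 modifies the Ndufs7 protein and Ndufaf8 stabilises Ndufaf5. Ndufaf5 had 297 bp over its TSS (chr2:140170620-140170916), 56 bp from a TSS of Esf1, a nucleolar protein gene. Ndufaf8 had 231 bp ending 141 bp from its TSS (chr11:120098557-120098787), over a TSS of Tepsin.

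In complex II, Sdha had the only HA-Tex10 interval. Sdha encodes the flavoprotein that oxidises succinate, and its interval of 30 bp (chr13:74350294-74350323) ended 14 bp from its TSS and covered a TSS of the divergent gene Ccdc127. In complex III, Uqcrc1, a core subunit gene, had 188 bp over its TSS (chr9:108936599-108936786), of which 88.3% lay in H3K4me3. In complex IV, Cox4i1 had 84 bp (chr8:120667894-120667977), 245 bp from its own TSS and 26 bp from a TSS of Emc8, a subunit gene of the membrane protein insertion complex of the endoplasmic reticulum. Cox6a1 had 229 bp ending 23 bp from its TSS (chr5:115349004-115349232). Cox6b2, a testis form of the Cox6b subunit, had 247 bp over its TSS (chr7:4752856-4753102).

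In complex V, HA-Tex10 lay at genes of 3 different parts of the enzyme. Atp5a1, the alpha subunit of the catalytic head, had 142 bp, 103 bp from its TSS (chr18:77774059-77774200), at a promoter shared with Haus1, a spindle gene. Atp5g1, which encodes the ring subunit c, had 288 bp, 52 bp from its TSS (chr11:96075722-96076009), of which 45.1% lay in H3K4me3. Atp5j, a subunit of the peripheral stalk, had 381 bp, 304 bp from the nearest of its 4 TSS (chr16:84834543-84834923), and a further interval of 1 bp at 84835083. Relative to its 5′-most TSS, the 381 bp interval lay 702 to 1082 bp downstream. Both intervals lay closer to Gabpa, at 2 and 41 bp from its TSS. Gabpa encodes an ETS-family factor known as a regulator of oxidative phosphorylation genes.

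**Figure D2:**
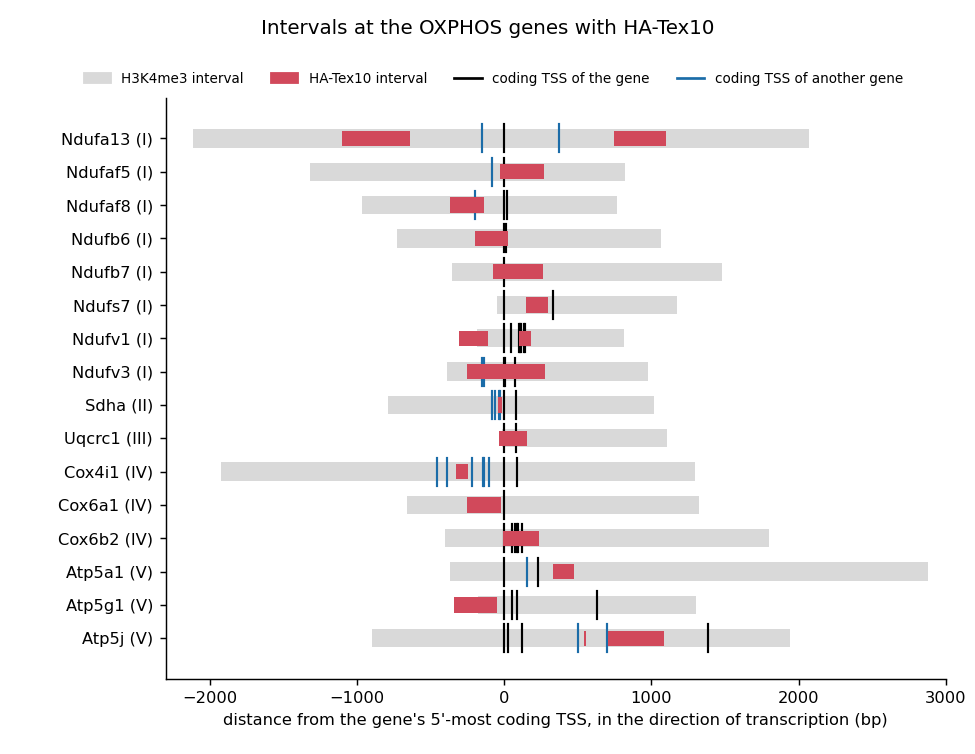
Positions (bp from the 5′-most coding TSS, in the direction of transcription) of H3K4me3 intervals (grey) and HA-Tex10 intervals (red) at the 16 members with HA-Tex10, ordered by complex. Black and blue ticks are coding TSS of the member and of other genes. At 7 members a red bar covers a black tick, and at Ndufa13 the 2 red bars lie on either side of it.

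The 16 members had 19 HA-Tex10 intervals, with 2 each at Ndufv1, Ndufa13 and Atp5j. All 19 met H3K4me3 and 16 lay wholly inside it, and in all 19 no 32-base word was repeated elsewhere in the genome. Their median width was 229 bp (n = 19), against 234 bp for the intervals at all protein-coding genes. An interval covered a TSS of its own gene at 7 members, Cox6b2, Ndufaf5, Ndufb6, Ndufb7, Ndufv1, Ndufv3 and Uqcrc1. The median offset of the interval centre from the nearest TSS was -25 bp (interquartile range -152 to 30 bp, n = 16), where negative values are upstream, against -36.5 bp over all genes. Measured from the 5′-most TSS only, the members' median offset was 35.25 bp, so its sign depends on which start is used. The centre lay within 250 bp of a TSS at 12 of 16 members (75%), against 71.7% of all genes with HA-Tex10. In position and width, the members' intervals were thus close to those of all genes.

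The number of members with HA-Tex10 depended on how close an interval had to be. With the interval required to cover a TSS there were 7, against 4.06% of all genes, and within 500 bp there were 15, against 8.52%, the missing one being Ndufa13. Within 2.5 kb there were 17, against 10.0%, with Atp5g2 added. The same 16 members had HA-Tex10 when the 5′-most TSS alone was used, against 8.43%, and when mostly repeated intervals were left out, against 8.63%. With the starts of all transcripts there were 17, against 9.45%, with Cox6c, a small subunit gene of complex IV, added. With intervals under 50 bp left out there were 15, against 8.73%, the missing one being Sdha. With only the intervals wider than the median of their list there were 7, against 4.86%, namely Atp5g1, Atp5j, Cox6b2, Ndufa13, Ndufaf5, Ndufb7 and Ndufv3.

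Many members share a promoter region with another gene. Another coding TSS lay within 1 kb at 33 of 91 members (36.3%, 27.1% to 46.5%), against 12.7% of all genes. HA-Tex10 was at 8 of these 33 members (24.2%), against 22.2% of all genes with such a neighbour, and at 8 of the 58 other members (13.8%), against 7.21%. Among marked genes alone the shares were 24.2% against 24.2% with such a neighbour and 15.4% against 12% without, so the members were near the background in both. For 8 of the 16 members with HA-Tex10, the interval also lay within 1 kb of a TSS of another gene, and the member was the nearest gene for 11 of 16. The 5 members whose interval lay nearer to another gene were Atp5j, Cox4i1, Ndufa13, Ndufaf8 and Sdha. Which gene of a pair an interval belongs to was not tested. Of all 1891 genes with HA-Tex10, 587 had another coding TSS within 1 kb. With each interval given to the nearest gene only, 11 of the 16 members kept HA-Tex10, against 1680 of the 1891 genes (8.11% of all genes). The members thus lost intervals to a neighbour more often than genes in general, in small numbers.

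The widest H3K4me3 interval at a TSS had a median width of 1546 bp over the 85 marked members (interquartile range 1178 to 1981 bp), against 1360 bp (879 to 1981 bp) over all 12966 marked genes. Of the members, 55 of 85 lay above the median of all genes, and 5 (5.88%) reached 3 kb, against 6.59% of all genes. The interval spanned the 5′-most TSS at 76 of 85 members (89.4%), against 70.7%. Its downstream end lay a median of 1070 bp past the TSS, against 1059 bp, and its upstream end at -367 bp (95% interval of the median, from order statistics, -551 to -238 bp), against -241.5 bp. The upstream difference was thus within the error of the members' median. Members that share a promoter region had a median of 1921 bp (n = 33) and the other members one of 1397 bp (n = 52), against 1864.5 and 1247 bp for all genes split in the same way.

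**Figure D3:**
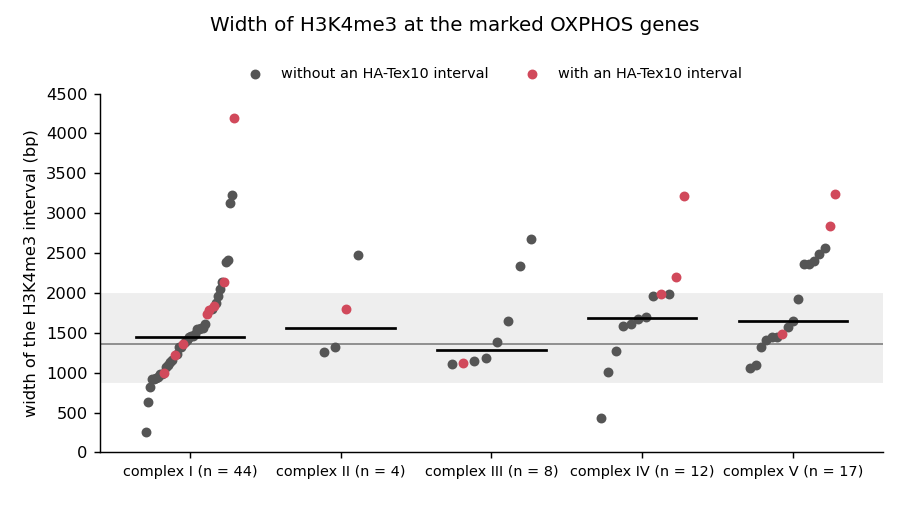
Width (bp) of the widest H3K4me3 interval within 1 kb of a coding TSS, for each marked member by complex, with members carrying HA-Tex10 in red, the median of each complex as a black line, and the median and interquartile range of all marked genes as a grey line and band. The medians run from 1278.5 bp in complex III to 1682.5 bp in complex IV, and the complexes overlap over most of their range.

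By complex the median width was 1451 bp in I, 1565.5 bp in II, 1278.5 bp in III, 1682.5 bp in IV and 1646 bp in V. Among the Nduf genes, counted as complex I, the widest interval was at Ndufa13 (4188 bp) and the narrowest at Ndufa4l2 (257 bp). In complex II the extremes were Sdhd, a membrane anchor of the enzyme (2478 bp), and Sdhc, the other anchor (1253 bp). In complex III they were Uqcrh, the hinge protein between cytochromes (2680 bp), and Uqcrfs1, the Rieske iron-sulfur protein (1104 bp). In complex IV they were Cox4i1 (3220 bp) and Cox7a1, a muscle form (433 bp). In complex V they were Atp5a1 (3244 bp) and Atp5mpl, a small accessory subunit (1063 bp). The widest interval belonged to a member with HA-Tex10 in complexes I, IV and V, and not in complexes II and III.

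Marked members with HA-Tex10 had a median H3K4me3 width of 1821.5 bp (95% interval 1365 to 2844 bp, n = 16), and those without had 1456 bp (1323 to 1605 bp, n = 69), and the intervals of these medians overlap. All marked genes showed the same order, with 1756 and 1294 bp. When all marked genes were split by width into 5 classes of equal size, from narrow to wide, HA-Tex10 was at 0 of 3, 2 of 18, 3 of 25, 6 of 22 and 5 of 17 members, against 5.36%, 10.2%, 14.4%, 17.2% and 24.4% of all genes. The share with HA-Tex10 was thus higher in the wider classes both over all genes and, in small numbers, among the members.

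The members without H3K4me3 were mostly isoforms known from particular tissues. They were Cox4i2 (lung), Cox6a2 and Cox8b (heart and skeletal muscle), Cox7b2 and Cox8c (testis), and the second Atp5o identifier, a locus whose start lies inside the first. The first Atp5o identifier had a 1449 bp H3K4me3 interval. Of the 8 tissue-restricted isoforms, 3 had H3K4me3, Cox6b2 (2202 bp), Cox7a1 (433 bp) and Ndufa4l2 (257 bp). Their widely used partners had it at 6 of 6, from 1008 bp at Cox6b1 to 3220 bp at Cox4i1, with 1981 bp at Cox6a1, 1695 bp at Cox7a2, 1605 bp at Cox8a and 2419 bp at Ndufa4. HA-Tex10 was at 1 of 8 isoforms, Cox6b2, and at 2 of 6 partners, Cox4i1 and Cox6a1. Cox6b2 stood apart from the other 7 isoforms in carrying both a wide H3K4me3 interval and HA-Tex10. The 1 kb around the start had a median observed-to-expected CpG ratio of 0.329 at the isoforms (n = 8), against 0.720 over all members. Without the isoforms, H3K4me3 was at 82 of 83 members (98.8%).

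Short motifs were counted in the RefSeq promoters of 73 of 91 members, on both strands, beside those of 10012 genes with H3K4me3 and all 16457 genes with such a promoter. None of the 8 motifs contains the letters of another. The NRF1 motif CGCATGCG, bound by a factor known for activating respiratory chain genes, was in 11 of 73 members (15.1%), against 4.3% of marked genes and 2.81% of all genes. The YY1 motif AAGATGGC was also in 11 (15.1%), against 5.01% and 3.59%, and the ETS motif CCGGAAG was in 18 (24.7%), against 19.7% and 13.3%. The SP motif GGGCGG was in 34 (46.6%), against 71.7% and 50.3%. The NFY motif CCAAT was in 32 (43.8%), against 42.7% and 42.3%. The E-box CACGTG was in 6 (8.22%), ZBTB33 TCGCGAGA in 3 (4.11%) and ZNF143 ACTACAATT in 2 (2.74%), against 11.8%, 2.38% and 0.829% of marked genes. Among these, the NRF1 and YY1 letters were more frequent in the members than in marked genes, and the SP letters were less frequent. In windows of 500 bp around the 5′-most TSS of all 91 members, SP letters were in 58.2%, against 54.2% of all genes, so the order of SP against all genes depended on the window. The median GC content of 1 kb around the start was 56.7% at marked members and 59.4% at all marked genes.

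**Figure D4:**
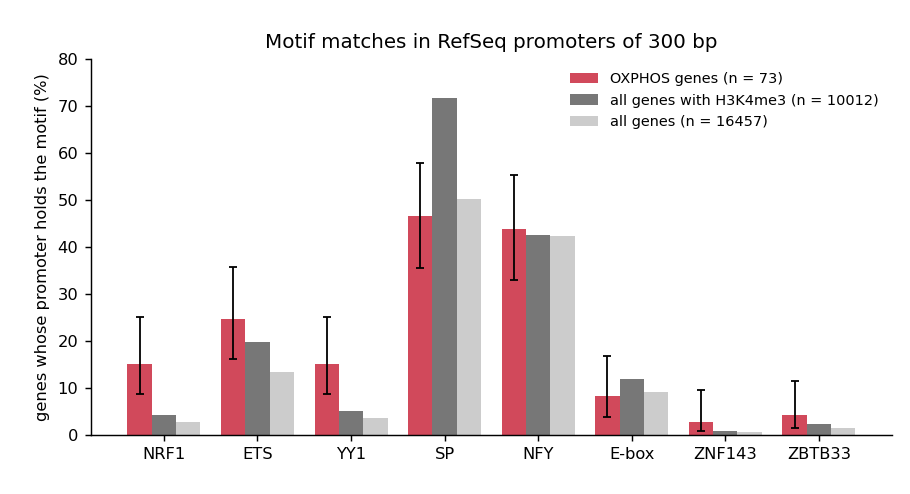
Share (%) of RefSeq promoters with each of 8 short motifs on either strand, for the 73 members, for genes with H3K4me3 and for all genes, with Wilson 95% intervals on the members. NRF1 and YY1 stand at 15.1% in the members against 4.3% and 5.01% of marked genes, and SP at 46.6% against 71.7%.

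The members with the NRF1 letters were Atp5g2, Atp5j, Atp5k, Atp5l, Cox6a1, Ndufa8, Ndufa11, Ndufaf4, Ndufaf5, Uqcr11 and Uqcrc1. HA-Tex10 was at 4 of these 11, Atp5j, Cox6a1, Ndufaf5 and Uqcrc1, and at 22.2% of the 463 genes with these letters. The letters lay inside 4 of the 19 HA-Tex10 intervals (21.1%, 8.51% to 43.3%), at Cox6a1, Ndufaf5, Uqcrc1 and Ndufa13, against 4.52% of the 1771 intervals at all protein-coding genes. The NRF1 letters were also in the promoters of 7 of 59 members without HA-Tex10 (11.9%), against 4.3% of marked genes. Whether the share inside the intervals only follows that of the members' promoters was not tested. The Cox6a1 and Uqcrc1 promoters printed above hold the NRF1 letters in capitals. The YY1 letters lay in 1 of the 19 intervals, that of Uqcrc1, against 3.67% of the 1771. Inside the 19 intervals, SP and NFY letters were each found in 6 (31.6%), against 47.0% and 25.6% of all 1771. ETS letters were in 3 (15.8%) and E-box letters in 2 (10.5%), against 13.8% and 8.07%, and these 4 shares of all intervals lie inside the members' counting intervals. A promoter without HA-Tex10 is given for comparison, that of Atp5b, the beta subunit of the catalytic head, at chr10:128083057-128083356, with its 2 SP matches in capitals.
Atp5b: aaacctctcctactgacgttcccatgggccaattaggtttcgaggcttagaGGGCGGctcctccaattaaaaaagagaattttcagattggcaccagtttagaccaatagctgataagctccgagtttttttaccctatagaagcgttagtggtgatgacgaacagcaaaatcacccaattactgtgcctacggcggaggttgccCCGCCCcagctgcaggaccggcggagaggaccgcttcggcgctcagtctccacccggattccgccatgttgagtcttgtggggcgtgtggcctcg
Atp5b had H3K4me3 and no HA-Tex10 interval, and a match of letters shows only that they are present, not that a factor is bound.

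Of 41 further genes of the pathway outside the symbol rule, 39 had H3K4me3 and 5 had HA-Tex10 (12.2%, 5.32% to 25.5%). This interval holds the shares of all genes and of all marked genes, 9.13% and 14.3%. HA-Tex10 was at 0 of 3 of Cyc1, Cycs and Cyct. Cycs and Cyct encode the carrier cytochrome c, and Cyc1 encodes a complex III subunit that the symbol rule missed. Among 12 assembly factors of complex IV it lay at Cox14, Cox18 and Cox20, and among 15 other assembly factors at none, and the intervals of these shares overlap (8.89% to 53.2% and 0% to 20.4%). Among 11 regulators it lay at Gabpa, through the interval shared with Atp5j, and at Tfb2m, a transcription factor of the mitochondrial genome. H3K4me3 was absent at Sdhaf1, an assembly factor of complex II, and at Ppargc1a, a coactivator known from energy-demanding tissues.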

How the data were processed

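Chromatin was cut enzymatically before immunoprecipitation and libraries were made with NEBNext Ultra II, per the labels' protocols. Reads were processed with Bowtie2 2.3.4.3, SAMtools 1.9, MACS2 2.1.2, HOMER and mm10, per the submitters' processing notes, which do not give their settings. How peaks were thresholded, whether input served as control and how replicates were combined are not given in the sources used here. The authors' deposited interval lists hold positions in bp and no score. A further deposited list, of HA-Tex10 intervals that meet H3K4me3, was not used as a measurement.

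Intervals were joined to coding TSS of GENCODE M21 (GRCm38) within 1 kb, edge to edge, and overlaps needed 1 bp. Shares have Wilson 95% intervals. A limit of 3 counts was used only for the count of 0 among the 6 members without H3K4me3. Repeats were read as 32-base words of the genome, with short intervals widened to 100 bp. Motifs were searched in RefSeq promoters (GRCm38.p6), which matched 73 members and missed 18. Those windows are printed in place of the intervals themselves, and no sequence of chromosome 18 is printed. The scripts used Python 3.11.15, pandas 2.3.3 and pysam 0.24.0, and the joins were tested on simulated data.

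The members, the gene lists and the motifs were chosen with earlier results of these data known. Named were all members with HA-Tex10, all without H3K4me3, the widest and the narrowest H3K4me3 interval of each complex, members reached only at 2.5 kb and members on chromosome 8. Partners, neighbours and motif-bearing members were also named from their lists. The alternatives were other TSS windows and start sites, nearest-gene assignment, filters on interval width and repeats, leaving out chromosome 8, non-subunits or isoforms, and a 500 bp motif window.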

Additional observations from a re-analysis of the deposited data

How the results depend on the processing

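Of 62 values of the main counts, medians and shares under an alternative, 56 stayed within their error or within 1.5 times, 5 moved and 1 reversed. Of the 75 for single complexes, 63 stayed and 12 moved. With the interval required to cover a TSS, 7 members had HA-Tex10 (4.06% of all genes), and with only intervals wider than the median also 7 (4.86%). The share of marked members was 8.54% in both. The share of all marked genes was not calculated under these settings, so 8.54% cannot be set against the 14.3% found within 1 kb. The SP share was 58.2% in 500 bp windows, and the median offset was 35.25 bp from the 5′-most TSS. Within 5 kb, 20 members had HA-Tex10 (11.2% of all genes), with Atp5g2, Cox6c, Cox8b and Ndufb10 added. It was at 14 members without the non-subunits and at 15 without the tissue-restricted isoforms. The causes were not tested. No paired analysis was possible because the lists, 1 per antibody, hold no replicate values, so no replicate could be left out either. The depth is unknown.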

Other observations

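Oxidative phosphorylation genes outside the symbol rule or the autosomes gave the following values. The X-linked subunit genes Ndufb11, Ndufa1 and Cox7b had H3K4me3 intervals of 2611, 1576 and 804 bp, and HA-Tex10 was at 0 of 3. The 12 annotated pseudogenes of members had 0 intervals of either list. The 13 subunit genes of the mitochondrial genome were each covered over 100% of their length by an interval in both lists, HA-Tex10 and H3K4me3. Mitochondrial DNA carries no histones, and the read depth there and in the input samples was not analysed here.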
